A study of Mus musculus with 6 samples.

Results

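The genes of the circadian clock were followed in the mouse aorta after a high fat diet or regular chow. The set held 10 genes, namely Per1, Per2, Per3, Cry1, Cry2, Dbp, Tef, Nr1d2, Clock and Bmal1, which the array annotation names Arntl. They were found by symbol among 22626 probe sets, the features of an Affymetrix array that each report on a transcript or a few related ones, and 18 probe sets carried one of these symbols and no other. The data were 6 arrays, 3 per diet, and the RNA on each array came from a pool of 3 aortas cleaned of their adventitia and surrounding fat. All mice were of the inbred strain C57BL/6J, which gains weight readily on such a diet, and the labels name no mutation or drug in either group. The feeding of high fat replicates 2 and 3 started when the mice were 10 weeks old, and 16 to 18 weeks of it are given for all high fat pools. For high fat replicate 1 the stated age was 16 to 20 weeks and no sex was stated, where the other 5 labels gave males. Chow replicates 2 and 3 were 26 to 28 weeks old, and no age was given for chow replicate 1. The labels used here give no time of day for the collection of the aortas, so that its part in the values below was not tested.

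The clock is a transcriptional loop that runs in most cells, those of the vessel wall included. CLOCK and BMAL1 bind E-box sequences together and switch on the Per and Cry genes, whose proteins return to the nucleus and shut CLOCK and BMAL1 off. The same pair drives Dbp, Tef and Nr1d2, of which DBP and TEF activate genes through D-box sequences, and NR1D2 (REV-ERB beta) represses genes with a ROR response element, Bmal1 among them. In most tissues the transcripts of Per, Dbp, Tef and Nr1d2 and that of Bmal1 peak at opposite times of the day.

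The elements that tie the members together were looked up in RefSeq promoter windows of build GRCm38.p6, which run from 250 bases before to 50 bases after a start site. Windows were found for 9 of the 10 genes, 14 in all, of which some overlap, and not for Per2. The canonical E-box CACGTG stood in 4 of the 14 windows, 1 each of Per1 and Cry1 and both of Tef, and 7.15% of all 32851 windows hold it. The variant CACGTT, read on both strands, stood in 2 of the 14, those of Cry1 and Cry2, against 4.68% of all windows. The D-box, searched as TTATGTAA or TTACGTAA, stood in 1 window, at 2 places before Per3, against 1.06% of all windows. The ROR element, searched as TAGGTCA or TGGGTCA, stood in 1 window, after a Bmal1 start site, against 6.45%. A match to these short words is a description of the sequence and not a bound site. Stretches of 5 members are shown, for Tef from 1 of its windows, because the members are linked through such elements, with each match in capitals, 5′ to 3′ on the strand of the gene.
Per1, E-box, chr11:69098758-69098813, plus strand: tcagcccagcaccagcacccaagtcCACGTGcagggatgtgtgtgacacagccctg
Cry1, E-box variant and E-box, chr10:85185084-85185158, minus strand: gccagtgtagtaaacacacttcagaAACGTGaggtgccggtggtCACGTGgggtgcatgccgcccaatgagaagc
Tef, E-box, chr15:81802521-81802576, plus strand: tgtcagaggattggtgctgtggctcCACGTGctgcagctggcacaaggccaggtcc
Per3, both D-boxes, chr4:151044791-151044895, minus strand: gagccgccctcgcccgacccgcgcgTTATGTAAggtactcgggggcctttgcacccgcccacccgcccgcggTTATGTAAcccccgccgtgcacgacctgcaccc
Bmal1, ROR element, chr7:113207533-113207555, plus strand: gcagaaagTAGGTCAgggacgga

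The comparison of the diets asked whether the clock transcripts of the aorta differed after a high fat diet. The brighter of the 2 Per2 probe sets and the brighter of the 2 for Nr1d2 had lower signals on all 3 high fat arrays than on any chow array, at 0.63 and 0.81 of the chow level. The dimmer probe set of each overlapped between the diets, and Per1, Per3, Cry1, Cry2, Dbp and Clock did so in every tested probe set. None of the clock probe sets passed adjustment over the whole array. Signals are MAS5 values on a linear scale, tested as log2(signal + 6) with limma, and a log2 fold change is high fat over chow on that scale. Of the 18 probe sets, 16 from 9 genes lay above a filter on low mean signal and were tested, and the Bmal1 probe set and 1 of 3 for Per3 lay under it. At an adjusted p of 0.05, 0 of the 16 passed in limma, where 0.0737% of the 13575 probe sets tested did, and 2 of the 16 had an unadjusted p under 0.05, both lower on high fat diet. Among all probe sets tested, 7.03% had such a p, and 3.11% had it with a lower signal on high fat diet. The diets did not overlap for 3 of the 16, against 12.3% of all tested, with 2 lower and 1 higher on high fat diet. Of the 16, 9 had the lower mean on high fat diet, where 51.8% of all did, and the median log2 fold change was -0.05 against -0.01 over all.

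**Figure D1:**
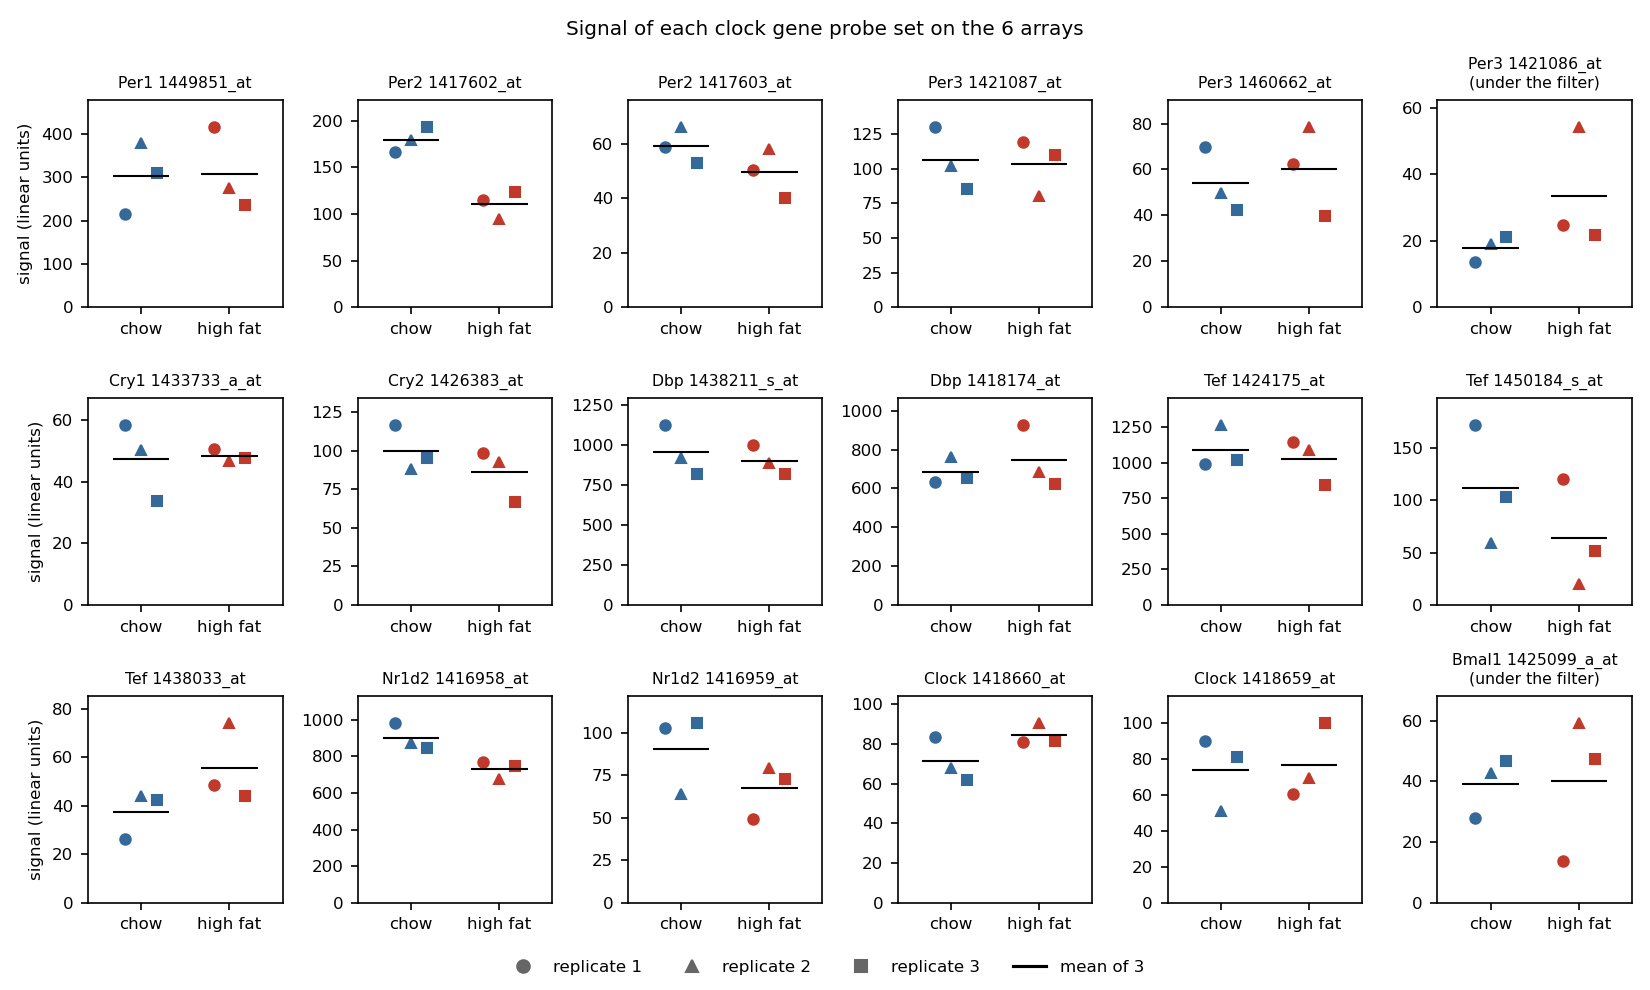
Signal of each of the 18 clock gene probe sets (vertical axis, linear units from 0) on the 3 chow and 3 high fat arrays (horizontal axis), with 1 marker shape per replicate number and a line at the mean of 3. The first Per2 probe set lies between 94.7 and 124 on high fat diet and between 166.2 and 193 on chow, while most other panels overlap.

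The Period genes encode the repressors whose build-up sets the length of the loop. The Per2 probe set of higher signal, 1417602_at, read 166.2, 179.7 and 193 on the chow arrays. On high fat diet it read 114.8, 94.7 and 124. The highest high fat value lay well under the lowest chow value, and the means were 111.2 ± 14.98 and 179.6 ± 13.4 (SD, n = 3 each). The log2 fold change was -0.67 ± 0.17 (SE), with a 95% interval from -1.04 to -0.30 and an unadjusted p of 0.00223 in limma, rank 72 among the 13575 probe sets, so that the adjusted p was 0.420. An exact permutation test of 3 arrays against 3 gave 0.1, two-sided, the smallest p this design allows. Over 15 alternative settings, single arrays left out included, the log2 fold change lay between -0.75 and -0.56 with an unadjusted p of at most 0.0115, and the adjusted p lay between 0.289 and 0.986 (limma). The second Per2 probe set, 1417603_at, was dimmer and read 59.1, 66.2 and 53.1 on chow. It read 50.3, 58.1 and 40.3 on high fat diet, so that the diets overlapped, with a log2 fold change of -0.24 ± 0.22 (adjusted p = 0.854, limma).

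Per1, which is also induced quickly by light, glucocorticoid and other stimuli, had nearly the same mean on both diets. It read 215.9, 379.8 and 310.8 on chow, and 415.5, 274.2 and 234.9 on high fat diet. The highest of the 6 values was high fat replicate 1 and the lowest chow replicate 1, so that the spread within each diet exceeded the difference, which was 0.02 ± 0.25 on the log2 scale with an interval from -0.52 to 0.57. Without high fat replicate 1 this value was -0.21, and without chow replicate 1 it was -0.20. Per3, a paralogue that is less needed for the rhythm, read 130.1, 102.4 and 85.8 on chow in its probe set of highest signal, and 119.7, 80.2 and 110.4 on high fat diet. These values overlapped, with a log2 fold change of -0.03 ± 0.21. Its second probe set, at 39.8 to 78.4 on high fat diet and 42.4 to 69.7 on chow, had 0.13 ± 0.28. The third lay under the filter at signals of 13.7 to 54.1, where all high fat arrays lay above all chow arrays by a narrow margin, 21.6 against 21.1.

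The cryptochromes are the partners with which PER proteins block CLOCK and BMAL1. Cry1 was dim, at 58.3, 50.2 and 33.6 on chow and 50.6, 46.7 and 47.7 on high fat diet. The high fat values lay inside the chow range, with a log2 fold change of 0.05 ± 0.24 that turned to -0.0053 with quantile normalization. Cry2 read 116.6, 87.9 and 95.4 on chow and 98.8, 92.4 and 67 on high fat diet. Its diets overlapped as well, and the log2 fold change was -0.21 ± 0.20 with an interval from -0.66 to 0.24 (adjusted p = 0.864, limma).

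DBP and TEF are related leucine zipper factors of the proline and acidic amino acid rich family, which pass the rhythm on to output genes. Their brightest probe sets lay at the percentiles 95.8 and 96.4 of mean log2 values. The Dbp probe set 1438211_s_at read 1126, 920.3 and 819.5 on chow and 1002, 890.9 and 817.7 on high fat diet. The diets were interleaved, with a log2 fold change of -0.07 ± 0.15 and an interval from -0.41 to 0.26. The other, 1418174_at, read 635.4, 763 and 654.7 on chow and 925.9, 686.4 and 622 on high fat diet, for a log2 fold change of 0.10 ± 0.17. The probe sets differed in the array they ranked highest, chow replicate 1 for the former and high fat replicate 1 for the latter, so that the order of single pools in Dbp was not settled by these data. The suffix _s_at marks a probe set that can bind related transcripts.

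Tef had 3 probe sets, which went different ways. The brightest, 1424175_at, read 992.8, 1263 and 1015 on chow and 1142, 1086 and 844 on high fat diet. These overlapped, with a log2 fold change of -0.09 ± 0.16 and an interval from -0.44 to 0.25. The probe set 1450184_s_at read 171.6, 59 and 103.2 on chow and 119.7, 20 and 51.7 on high fat diet, an 8.58-fold range over the 6 arrays. Its log2 fold change was -0.91 ± 0.51, the lowest of any clock probe set, yet the diets overlapped (adjusted p = 0.755, limma). This value rested on single arrays, at -1.48 without high fat replicate 1, where the diets no longer overlapped, and -0.34 without high fat replicate 2. It was -0.56 without chow replicate 1, and over all alternatives the adjusted p lay between 0.347 and 0.999 (limma). The dimmest, 1438033_at, had higher values on all high fat arrays, and is the 1 clock probe set tested that did not overlap in this direction. It read 48.5, 74.3 and 44.2 there against 26.4, 43.9 and 42.6 on chow. The nearest values differed by less than 1 signal unit, and the log2 fold change was 0.49 ± 0.27 (unadjusted p = 0.0999, adjusted p = 0.755, limma). Among all probe sets tested, 6.26% did not overlap with higher values on high fat diet.

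NR1D2 is a nuclear receptor that binds heme and represses Bmal1 together with its paralogue NR1D1. The bright Nr1d2 probe set, 1416958_at, read 983.1, 871.8 and 844.6 on chow. On high fat diet it read 769.9, 675.3 and 749.8. All high fat values lay below all chow values, with means of 731.7 ± 49.8 and 899.8 ± 73.4 (SD, n = 3 each), where 6.08% of all probe sets tested did not overlap in this direction. The log2 fold change was -0.30 ± 0.13 with an interval from -0.58 to -0.01 (unadjusted p = 0.0451, adjusted p = 0.693, limma). The unadjusted p stayed under 0.05 in 8 of 15 alternative settings. It was between 0.0526 and 0.135 with any 1 array left out, and the log2 fold change then lay between -0.34 and -0.23. The dimmer probe set, 1416959_at, read 102.7, 63.8 and 106 on chow and 49.6, 79.6 and 72.9 on high fat diet. It had the same sign without separating the diets, at -0.39 ± 0.25.

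CLOCK and BMAL1 are the activators of the loop. The Clock probe set 1418660_at read 83.6, 68 and 61.6 on chow and 80.9, 90.5 and 81.5 on high fat diet, so that only chow replicate 1 reached the high fat values. Its log2 fold change was 0.24 ± 0.19 with an interval from -0.18 to 0.66 (adjusted p = 0.836, limma). The other, 1418659_at, read 89.8, 51.2 and 81.2 on chow and 60.8, 69.4 and 100.1 on high fat diet, and its log2 fold change was 0.05 ± 0.26. Bmal1 was measured by 1 probe set, which lay under the filter at the percentile 37.4 of mean log2 values. It read 28, 42.9 and 46.6 on chow and 13.8, 59.3 and 47.5 on high fat diet. High fat replicate 1 had the lowest signal and high fat replicate 2 the highest, a 4.30-fold range within 1 diet, and signals this low could not be told from background without detection calls. In the fit without a filter its log2 fold change was -0.11 ± 0.44.

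**Figure D2:**
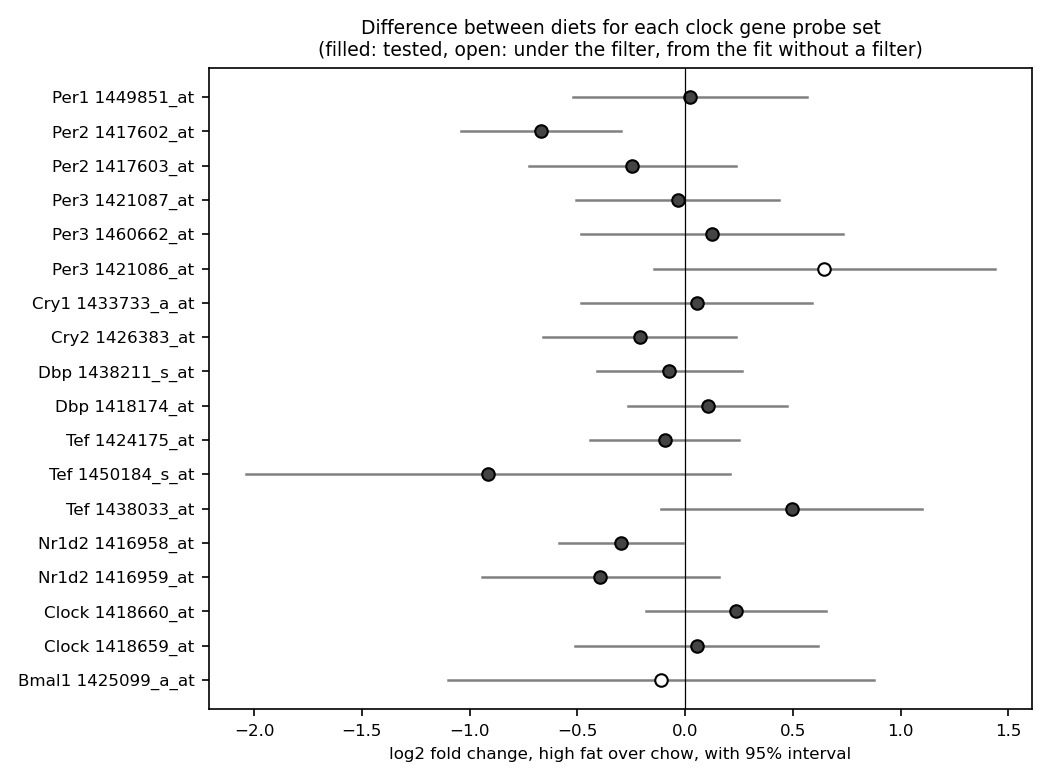
Log2 fold change, high fat over chow (horizontal axis), of each clock gene probe set, with its 95% interval from limma, not adjusted for the number of probe sets, as a line. Filled points were tested, open points lay under the filter and come from the fit without it; the intervals of the first Per2 and the first Nr1d2 probe set do not reach 0.

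The pools were compared with each other through 1 probe set per gene, that of highest mean, as log2 deviations from the mean of the 6 arrays. High fat replicate 1 stood apart in Bmal1, at -1.11, while its Per1 was the highest of the 6 at 0.48 and its Per2 was low at -0.28. High fat replicate 2 had the lowest Per2, Per3 and Nr1d2, at -0.55, -0.34 and -0.26, and the highest Clock and Bmal1, at 0.22 and 0.61. Chow replicate 1 had the highest Dbp, Cry2, Nr1d2, Per3 and Cry1, at 0.28, 0.33, 0.28, 0.32 and 0.27, but the lowest Per1, at -0.45. A score was taken as the mean over Per1, Per2, Per3, Dbp, Tef and Nr1d2 minus the mean over Bmal1, Clock and Cry1. The score sets Cry1, a repressor, beside both activators and leaves out Cry2, so that it is not a balance of activators and repressors. On high fat diet it was 0.41 in replicate 1, -0.48 in replicate 2 and -0.31 in replicate 3. On chow it was 0.08, 0.14 and 0.16. The chow pools lay close together, with an SD of 0.04, and the high fat pools lay on both sides of them, with an SD of 0.47. Bmal1, whose signal lay under the filter, carries much of this spread. The score is a description, with no test, and its difference between the diets, -0.25, is smaller than the spread of the high fat pools and was -0.14 with all probe sets of a gene averaged.

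**Figure D3:**
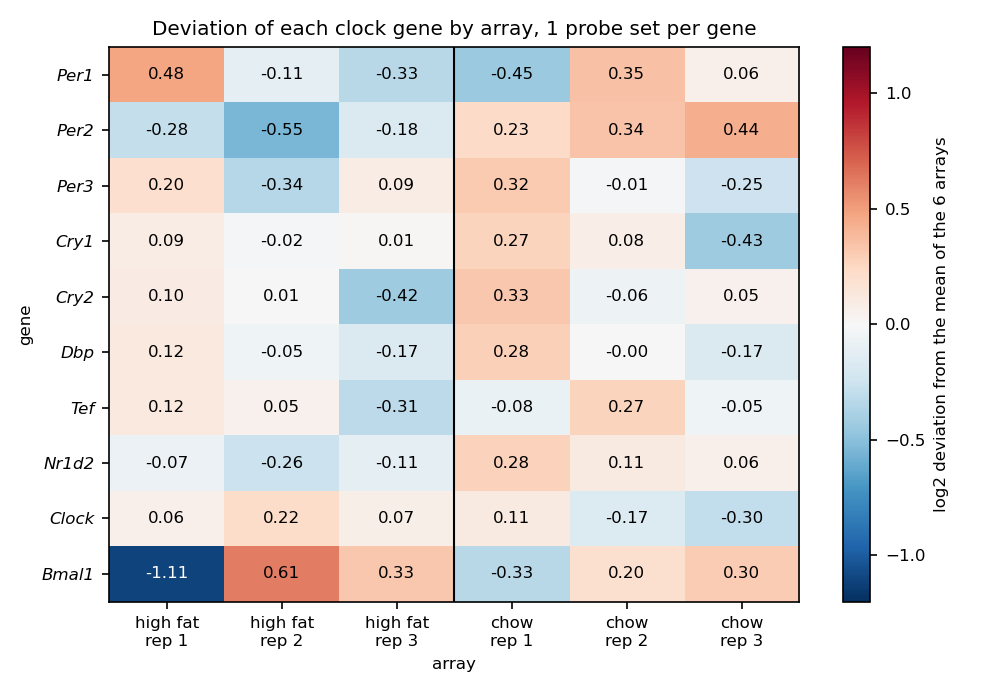
Log2 deviation of each clock gene (rows, 1 probe set per gene) from its mean over the 6 arrays, by array (columns), with colour and printed value on the same scale. In these probe sets Per2 and Nr1d2 are negative on all high fat arrays and positive on all chow arrays, and Bmal1 has both the lowest and the highest value among the high fat arrays, -1.11 and 0.61.

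Differences between related genes within an array do not depend, but for the pseudocount, on the scaling factor of that array. The log2 signal of Per2 minus that of Per1 was -1.80, -1.48 and -0.89 on high fat diet and -0.37, -1.06 and -0.67 on chow, which overlapped (difference -0.69, exact permutation p = 0.2, two-sided). For Nr1d2 minus Nr1d1 the values were 0.71, 0.73 and 0.75 on high fat diet and 1.91, 1.15 and 0.75 on chow. They did not overlap, but chow replicate 3 lay next to the high fat values (difference -0.55, exact permutation p = 0.1, two-sided). Of 5 such pairs, Per3 minus Per1, Cry1 minus Cry2 and Tef minus Dbp differed by -0.06, 0.27 and -0.02, with exact permutation p-values of 1, 0.4 and 0.9. The smallest p after Benjamini-Hochberg adjustment over the 5 was 0.5 (exact permutation tests).

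Other genes of the clock were taken from lists that do not hold the members. Of 10 further genes of the core loop, 8 were on the array and 5 passed the filter. Of these 5, 0 had an unadjusted p under 0.05 in limma and 0 separated the diets. Among all probe sets tested, 7.03% and 12.3% did. Nr1d1, the paralogue of Nr1d2 (REV-ERB alpha), read 256.4, 389.7 and 498.7 on chow and 469.6, 404.8 and 444.8 on high fat diet. These overlapped, and its log2 fold change was 0.25 ± 0.22. Its sign was opposite to that of Nr1d2, and chow replicate 1, lowest in Nr1d1, was highest in Nr1d2. Bhlhe40, a repressor that competes for E-boxes, and Rora, an activator at ROR elements, had 0.12 ± 0.17 and -0.07 ± 0.23. Npas2, which can stand in for CLOCK, lay under the filter at signals of 11.6 to 25.6.

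Of 14 kinases, phosphatases, ubiquitin ligases and other modifiers of clock proteins, 12 were on the array and 11 were tested. Of these 11, 0 had an unadjusted p under 0.05 in limma, where 7.03% of all probe sets tested did. In a list this small, 0 is near that share. The smallest p-values were those of Sirt1, a deacetylase, at -0.39 ± 0.22, Csnk1a1, a casein kinase, at -0.25 ± 0.15, and Csnk2a1 at 0.28 ± 0.18. Of 17 symbols listed for output genes, 10 were on the array and all 10 were tested. Pdk4 and Tsc22d3 are also in the list of glucocorticoid targets below. Nampt, the rate-limiting enzyme of NAD salvage, read 496, 389.1 and 449.8 on chow and 345.1, 347.8 and 343.6 on high fat diet. All high fat values lay below all chow values, with a log2 fold change of -0.35 ± 0.14 (unadjusted p = 0.0327, adjusted p = 0.662, limma). Pdk4, a kinase that closes the pyruvate dehydrogenase complex and also a PPAR target, had the opposite sign, at 0.62 ± 0.22 (unadjusted p = 0.0172, adjusted p = 0.586, limma), and its diets overlapped. Ppp1r3c, a glycogen targeting subunit of protein phosphatase, had -0.31 ± 0.18 (unadjusted p = 0.126, limma). The remaining 7 also had an unadjusted p above 0.05 in limma. Among all probe sets tested, 7.03% had one under 0.05, and 6.08% did not overlap with lower values on high fat diet.

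Glucocorticoid induces Per1 and entrains peripheral clocks. Most of its listed target genes had lower mean signals on high fat diet, while Per1 itself had a log2 fold change of 0.02 ± 0.25. Of 11 targets, all tested, 10 had the lower mean on high fat diet, where 51.8% of all probe sets did. The median log2 fold change was -0.48, or -0.32 without Mt1 and Mt2. The whole list was chosen with earlier results of these data known, the lower signals of Mt1 and Mt2 among them. Its counts and medians are therefore no independent result, with or without those genes. Without high fat replicate 3 the median of the 11 was -0.32. None passed adjustment over all probe sets in limma. At an unadjusted p of 0.05, 6 were lower and 1, Pdk4, was higher, where 3.11% of all probe sets were lower and 3.92% higher. Mt2, a metallothionein, read 2512, 2959 and 1946 on chow and 1842, 1064 and 1264 on high fat diet. The diets did not overlap, and the log2 fold change was -0.85 ± 0.21 (adjusted p = 0.402, limma). Mt1 and Klf15, the latter a Krüppel-like transcription factor, had -0.57 ± 0.16 and -0.51 ± 0.18. The other 3 lower targets, given after their values were seen, were Fkbp5, a chaperone partner of the glucocorticoid receptor, at -0.51 ± 0.20, Sgk1, a kinase, at -0.48 ± 0.18, and Klf9 at -0.32 ± 0.13. Zbtb16, Tsc22d3, Errfi1 and Dusp1 were also named after their values were seen. They had -0.52 ± 0.32, -0.18 ± 0.21, -0.15 ± 0.20 and -0.14 ± 0.13, each with an unadjusted p above 0.05 (limma). Of the 9 genes other than Mt1 and Mt2, 8 had lower means and 4 an unadjusted p under 0.05. The count of 6 became 3 without chow replicate 3, 4 when either diet lost its replicate 2, and 4 without the variance trend. The summed signal of the 11 targets was 10538 to 11966 on high fat diet and 13227 to 15522 on chow. Mt1 and Mt2 carried much of this difference, with means of 2322 and 1390 on high fat diet against 3465 and 2472 on chow.

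**Figure D4:**
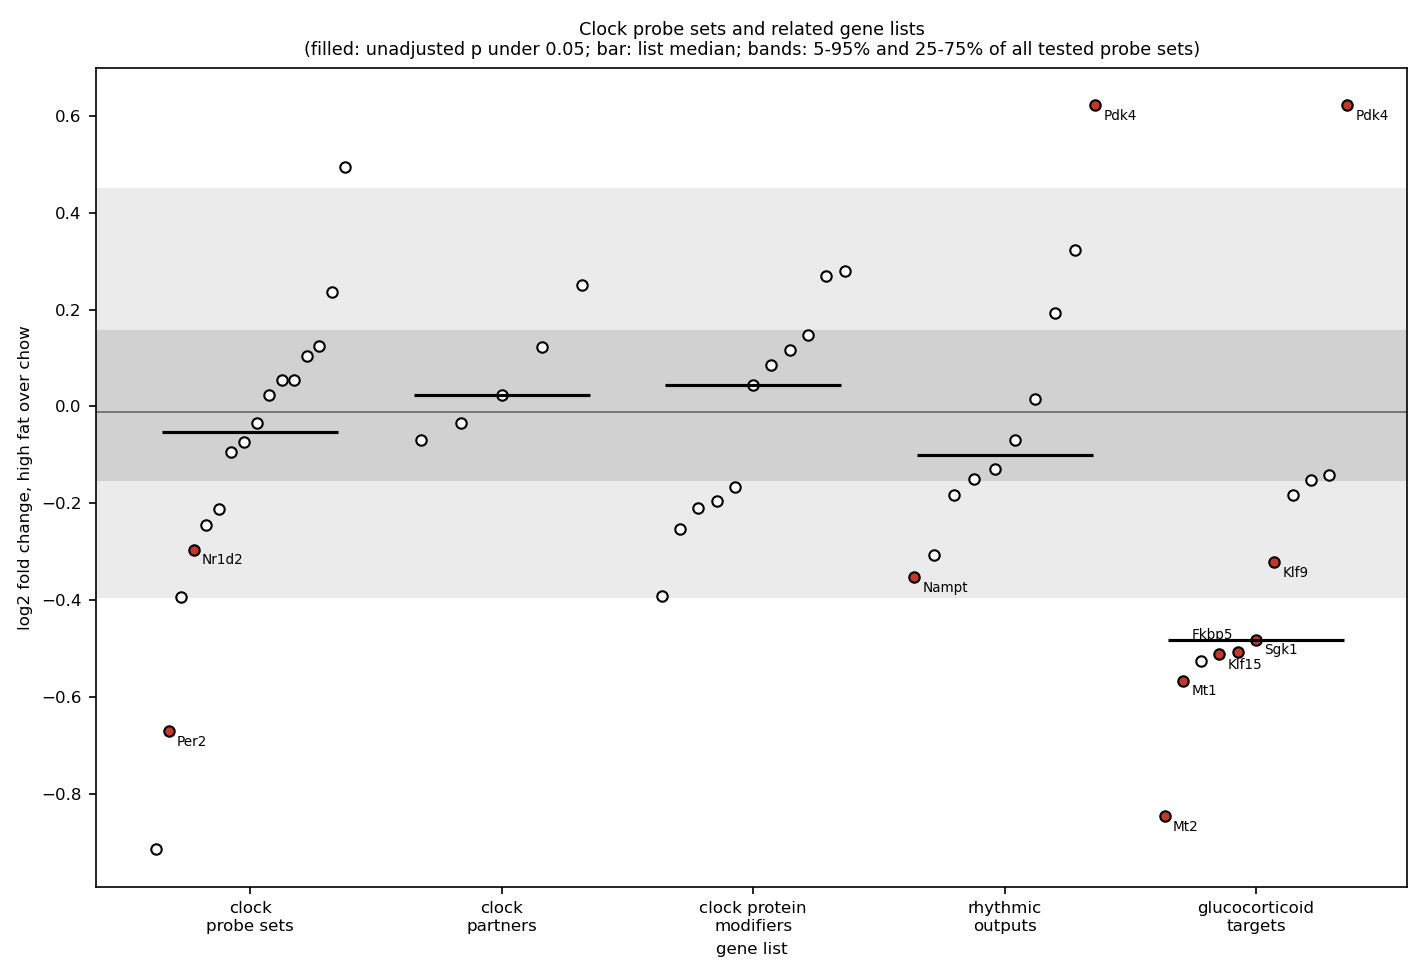
Log2 fold change, high fat over chow (vertical axis), of the 16 clock probe sets tested and of the genes tested in 4 related lists (horizontal axis). Filled points have an unadjusted p under 0.05 in limma, bars are list medians, and the bands run from the 25th to the 75th and from the 5th to the 95th percentile of all 13575 probe sets; the glucocorticoid targets have a median of -0.48, or -0.32 without Mt1 and Mt2, against -0.05 for the clock probe sets.

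The tissue was checked with markers. All 10 smooth muscle markers passed the filter, with a summed signal of 24967 to 25790 on high fat diet and 24308 to 29872 on chow. Of these 10, 8 had the lower mean on high fat diet, where 51.8% of all probe sets tested did. Their median log2 fold change was -0.13, and none separated the diets. Of the markers of other cell types, 11 of 12 for cardiac muscle, 8 of 8 for endothelium, 7 of 8 for brown adipocytes, 8 of 9 for macrophages, 5 of 6 for white adipocytes and 3 of 7 for skeletal muscle passed it. No marker was at 0 on all arrays. Dim markers such as Itgam, at 13.7 to 26, met this too, so it does not show that a cell type was present. Some fat markers were bright, with Ucp1 at 2122 to 3664 and Adipoq at 1559 to 2190 over the 6 arrays. Zic1 and Lep lay under the filter. Signals of such fat markers were thus high in every pool, although the aortas had been cleaned of surrounding fat. The sum of 8 brown adipocyte markers was 10351 to 12559 on high fat diet and 6724 to 8875 on chow, that of 8 endothelial markers 1454 to 1718 and 1299 to 1328, and that of 9 macrophage markers 2568 to 4336 and 2006 to 2467. These sums separate the diets in the direction opposite to the brighter Per2 and Nr1d2 probe sets. The sum of the glucocorticoid targets, to which Mt1 and Mt2 contribute much, was lower on high fat diet. That list was made with earlier results known, and its relation to Per2 and Nr1d2 was not tested. Per1 had nearly the same mean on both diets. Bright genes weigh most in a sum. Of the markers tested, 7 of 7 for brown adipocytes, 7 of 8 for endothelium and 7 of 8 for macrophages had the higher mean on high fat diet. Pecam1 had the lower mean, and Cd14 was lower on every high fat array, at 125.7 to 146.4 against 150.6 to 193.3. The sum of 12 cardiac muscle markers, 1114 to 7727 on high fat diet and 1060 to 3880 on chow, was low in high fat replicate 1 and chow replicate 3 and overlapped. Sums of 6 white adipocyte markers, 7565 to 7694 on high fat diet and 6050 to 8418 on chow, and of 7 skeletal muscle markers, 224 to 512 and 284 to 816, overlapped as well. Still, 4 of these 7, namely Tnnc2, Myh1, Tnnt3 and Mylpf, were lower on every high fat array than on any chow array. Per2 and Nr1d2 had this direction in their brighter probe sets. Of the 3 skeletal muscle markers tested, 1 did not overlap in this direction, where 6.08% of all probe sets tested did so. Myh1, Tnnt3 and Mylpf lay under the filter and are outside that share. Tnnc2, the 1 of the 4 above the filter, had 28.6 ± 7.80 against 93.1 ± 40.9. Margins were narrow for Mylpf, 19.4 on high fat diet against 20.6 on chow, and for Tnnt3, 27.2 against 29.3. Acta1, Myh4 and Ckm overlapped, and Ckm had the higher mean on high fat diet, at 0.13 ± 0.42. The part of these cell types in the lower signals of Per2, Nr1d2 and the glucocorticoid targets was not tested. In pooled tissue, fewer cells of a type and less RNA per cell cannot be told apart.

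The genes whose pattern over the 6 arrays was most like that of the Dbp probe set 1438211_s_at were sought among 8199 other genes. The highest Pearson correlations were those of Macroh2a1, Arsi, Sh3bp4, Lamb2 and Tex261, from 0.974 to 0.983, and the lowest those of Inpp4a, Pvr, Myh9, Scamp5 and Cpne1, from -0.988 to -0.973. With 6 arrays and this many genes, values of this size are a ranking only and carry no p. The other members had weaker correlations with this probe set, from 0.78 for Cry2 and 0.77 for Cry1 to 0.04 for Per2 and -0.66 for Bmal1, which lay under the filter. The second Dbp probe set ordered the arrays differently, so that these values describe 1 probe set and not the gene.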

How the data were processed

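Each deposited value is the signal intensity of 1 probe set on 1 of 6 arrays, on a linear scale. It was made with MAS5, per the submitters' processing notes, whose version is not given in the sources used. Of 22690 probe sets, 64 controls were left out, and 20380 of the rest had 1 gene symbol in the platform annotation. The pseudocount of 6 in log2(signal + 6) lies near the 10th percentile of all signals and understates changes of dim genes. The filter kept probe sets whose mean log2 value exceeded the 40th percentile (a signal of 40.7). The fit used lmFit and eBayes of limma 3.58.1 under R 4.3.3, two-sided, with the variance trend on. P-values were adjusted by Benjamini-Hochberg over the 13575 probe sets kept, at a threshold of 0.05. On simulated data of that size, log2 changes of 0.5, 1 and 1.5 were called in 9.73%, 74.4% and 96.3% of cases. These were 339, 313 and 348 changed probe sets over 5 runs. The rates depend on how many probe sets change, and can be lower where fewer do. The number of arrays limits the precision, and the spread tested is that of pools, not of single animals.

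The members and lists were chosen with earlier results of these data known. Named were all member probe sets, up to 3 genes per related list by smallest p (1 probe set per gene, highest mean) plus Nr1d1 and Npas2, and the 5 genes most and least like Dbp. The settings varied were the pseudocount (1 or 21), the filter (none or the 60th percentile), the scaling (quantile normalization or equal medians), the variance trend, a block for the replicate number, single arrays left out in turn, and 1 probe set per gene. The counts of glucocorticoid targets under these settings were added after seeing the data, as were the single cell type markers and the further glucocorticoid targets named. Median signals were 58.4 to 66.6, between 42.0% and 46.3% of an array's signals lay under 50, and high fat replicate 2 correlated least with the rest (mean r of 0.945). Tables and figures were made in Python 3.11.15 with pandas 2.3.3 and numpy 2.4.6, and with matplotlib 3.10.9 for the plots.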

Additional observations from a re-analysis of the deposited data

How the results depend on the processing

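No clock probe set passed an adjusted p of 0.05 in limma in any of the 15 alternative settings. Of 225 log2 fold changes of clock probe sets under these settings, 210 kept their sign. The other 15 belonged to 8 probe sets, and the cause was not tested. Cry1 had -0.0053 with quantile normalization and Per1 -0.020 with equal medians. With single arrays left out, the log2 fold change ranged from -0.21 to 0.20 for Per1, from -0.17 to 0.13 and from -0.072 to 0.37 for the Per3 probe sets 1421087_at and 1460662_at, and from -0.15 to 0.20 for Cry1. It ranged from -0.18 to 0.052 and from -0.062 to 0.22 for the Dbp probe sets 1438211_s_at and 1418174_at, from -0.18 to 0.039 for Tef 1424175_at and from -0.17 to 0.20 for Clock 1418659_at.

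The 2 clock probe sets with an unadjusted p under 0.05 became 1, Per2, without the variance trend, 3 with the replicate block, where Tef 1450184_s_at joined Per2 and Nr1d2, and 1 to 3 with single arrays left out. The 3 whose diets did not overlap became 2 with the filter at the 60th percentile or 1 probe set per gene, 4 without a filter or with quantile normalization, and 3 to 5 with single arrays left out, where 18.9% to 27.2% of all probe sets did not overlap. Over the whole array, the 10 probe sets past the adjusted threshold became 6 without a filter, 6 with 1 probe set per gene, 5 without the variance trend and 5 to 16 with single arrays left out. Samples of the same replicate number did not all deviate together (correlations of 0.03, 0.17 and -0.11). Arrays of different number were not compared in this way, so whether the numbers pair the arrays was not settled. With the replicate block 5 probe sets passed the adjusted threshold, none of them of a clock gene. The SE of Tef 1450184_s_at fell from 0.51 to 0.23 with that block. Low signal limits the reading of Bmal1, of Cry1 and of the dimmer probe sets of Per2, Per3 and Tef.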
